A study of Mus musculus with 37 samples.

Results

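Glycolysis turns glucose into pyruvate in the cytosol, and lactate dehydrogenase interconverts pyruvate and lactate. This account covers 10 mouse genes of that route, of 29294 gene symbols listed in the 4 RNA-seq tables of the study. Gpi1 (glucose-6-phosphate isomerase), Aldoa (aldolase A) and Tpi1 (triosephosphate isomerase) act in the upper, energy-consuming steps. Gapdh, Pgk1 (phosphoglycerate kinase), Pgam1 (phosphoglycerate mutase), Eno1 (enolase) and Pkm (pyruvate kinase) act in the lower, ATP-yielding steps. Ldha and Ldhb encode the lactate dehydrogenase subunits common in muscle and in heart. The genes were picked by symbol, and their values in these same comparisons were known when they were picked, so every difference given here describes them and none is independent support for a change in the pathway. All 10 were listed in each of the 4 tables.

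The mouse oocyte takes up little glucose and runs on pyruvate, much of which the surrounding cumulus cells make by glycolysis and hand over. Its lactate dehydrogenase is known for being almost entirely of the LDHB type, which it stores in large amounts and which the embryo uses up and later replaces. The early cleavage embryo keeps this preference for pyruvate and takes up more glucose later.

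The study asked what the histone H3.3 chaperone Hira and its partner Cabin1 do in the mouse oocyte. ZH females carried Zp3-Cre and floxed Hira, and CabZ females Zp3-Cre and floxed Cabin1. In both lines KO females were homozygous for the floxed allele and Het littermates carried 1 floxed and 1 wild-type allele, so that the controls carried Cre and 1 floxed allele too. The Zp3 promoter acts in growing oocytes, which leaves earlier stages and the somatic cells of the ovary with the gene. Germinal vesicle (GV) oocytes of both lines and 2-cell embryos of CabZ females were sequenced in 4 Het and 4 KO libraries each. For the last comparison, wild-type GV oocytes received Zscan4d RNA (Zscan4 OE, 3 libraries) or GFP RNA (4 libraries), were matured in vitro, activated without sperm and collected as 2-cell embryos. The labels give C57BL/6 as the strain of every sample, and ages were not given in the sources used here. The methods give 10 pooled oocytes per RNA-seq library, whereas the labels speak of individual cells; neither ties a library to an animal, so a p-value here measures the spread between libraries, which may be technical. Fewer oocytes and less RNA per oocyte cannot be told apart in such libraries. Open chromatin (ATAC-seq) was measured in 3 CabZ Het and 3 CabZ KO libraries of GV oocytes.

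Depth, as reads restored from the tables, was 8984157 to 15050817 per ZH library, 9127231 to 12440215 per CabZ GV library, 5811539 to 8241992 per CabZ 2-cell library and 9886430 to 21793117 in the injection experiment. CabZ KO 2-cell libraries (5811539 to 6323421) were all shallower than CabZ Het 2-cell libraries (7931734 to 8241992). All 12 oocyte markers examined (Zp3, Gdf9, Dppa3 and others) exceeded 1 FPKM in every group. Their sum was lower in KO than in Het oocytes without overlap, at 2936 to 3674 against 4340 to 4660 FPKM in ZH and 5370 to 5671 against 5693 to 6502 FPKM in CabZ libraries, and its part in the values of the members was not tested. Of 20 cumulus and granulosa cell markers, 17 were listed for ZH oocytes, 8 for CabZ oocytes and 15 for CabZ 2-cell embryos, and the rest could not be examined. In CabZ 2-cell embryos 4 of them reached 1 FPKM in Het and 3 in KO libraries. None of those listed reached 1 FPKM in 3 of the 4 GV groups, and in ZH KO oocytes Inha alone did (1.2 FPKM). Sperm markers were also low in GV oocytes, where Prm2 alone exceeded 1 FPKM. Cabin1 itself was at 0.0891 to 0.159 FPKM in CabZ Het and 0.0125 to 0.0482 FPKM in CabZ KO oocytes, and at 0.229 to 0.455 against 0.064 to 0.181 FPKM in 2-cell embryos, with no overlap in either. Hira was near 0 in both ZH groups (0.00105 to 0.0117 and 0 to 0.00868 FPKM), so that its level checks nothing. Zscan4d was not higher in the libraries labelled Zscan4 OE, at 70.3 to 84.3 FPKM, than with GFP, at 69.4 to 149 FPKM. These ranges overlapped (log2 fold change -0.5, limma adjusted p = 0.31), and no Zscan4 gene passed the test as higher in the libraries so labelled. All Zscan4 genes and pseudogenes listed had lower means there, with log2 fold changes from -2.6 (Zscan4a, 68.1 FPKM with GFP and 14.4 FPKM with Zscan4 OE) to -0.5. Their limma adjusted p ran from 0.053 to 0.56, so none was called. The authors report that the overexpression was checked in oocytes by PCR, immunofluorescence and western blot. The libraries here come from 2-cell embryos, so they do not test the level in the injected oocytes.

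Expression is given as FPKM, which in these tables scales fragments to the gene's whole span and to the depth of the library. Because introns count in the span, levels of different genes are compared only as exon RPKM, in which the restored reads are scaled to the exon length and to all reads of the table. That exon length was 4133 bases for Gapdh, 5379 for Eno1, 3310 for Ldha and 1570 for Ldhb. The copies Gm7336 and Eno1b matched Gapdh and Eno1 over only 1232 and 1736 bases. Where a transcript is shorter than the exon length its level is understated, so orders of genes and ratios per exon base depend on these lengths. A gene was tested where its mean over the table's libraries reached 1 FPKM, with limma on log2(FPKM + 1) and Benjamini-Hochberg adjustment over all genes tested; the log2 fold changes below are on that scale, which understates the change of low genes, and a call means an adjusted p under 0.05.

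**Figure D1:**
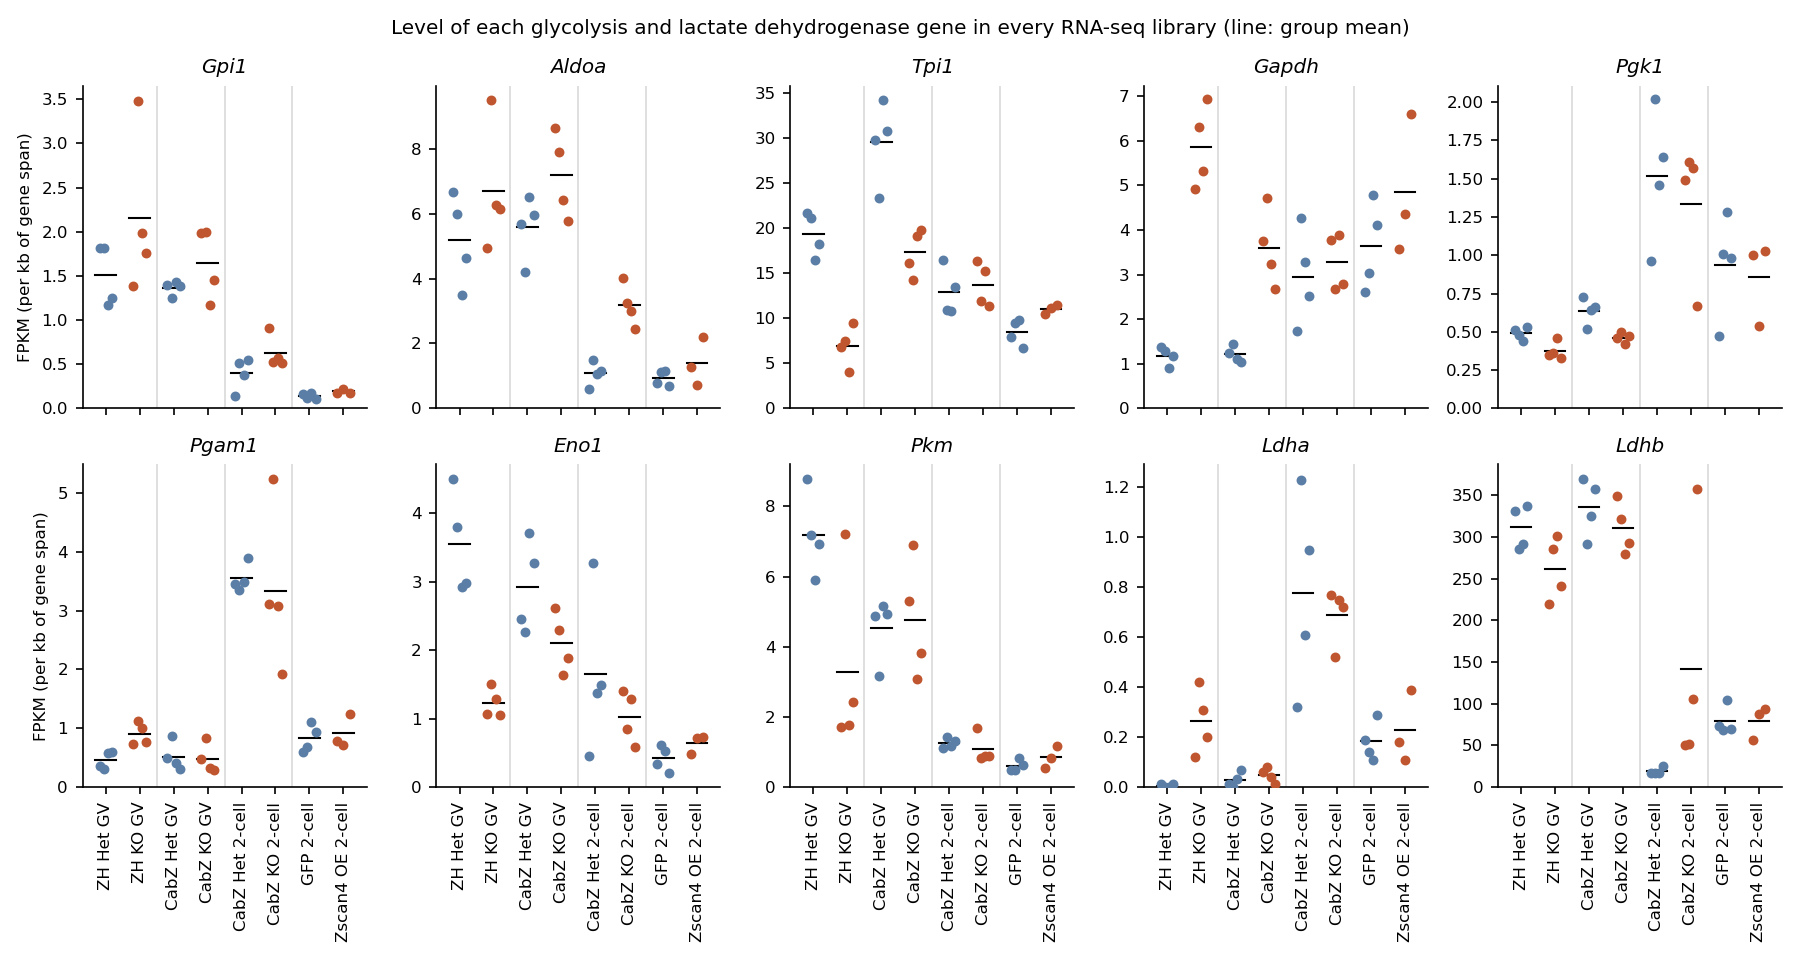
FPKM of each of the 10 genes in all 31 RNA-seq libraries, 1 panel per gene, with libraries grouped on the x axis (blue, Het or GFP; orange, KO or Zscan4 OE) and a black line at the group mean. Gapdh lay higher and Tpi1 lower in both kinds of KO oocyte, whereas Ldhb stood between 220 and 369 FPKM in every GV library and was lowest in CabZ Het 2-cell embryos. The 4 tables were normalised separately, so that positions across the grey lines are set side by side only.

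Ldhb was by far the most abundant of the 10 transcripts. It reached an exon RPKM of 4714 in ZH Het oocytes, whereas the next gene, Pkm, stood at 44.4 and Tpi1 at 35.1. The ranges of Ldhb and of the next gene over the libraries did not overlap in any of the 8 groups. Ldhb took 91.1 to 95.3% of the reads on the 10 genes in ZH KO oocytes and 92 to 94% in ZH Het oocytes.

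Below Ldhb, the order in ZH Het oocytes was Pkm, Tpi1, Aldoa, Eno1, Gpi1, Pgk1, Pgam1, Gapdh and Ldha. Pkm and Tpi1, Tpi1 and Aldoa, Eno1 and Gpi1, and Pgam1 and Gapdh overlapped in their ranges, so these neighbours did not differ beyond their spread. Gapdh, the transcript most often used as a loading reference in other tissues, was among the lowest as counted, at an exon RPKM of 1.83. Together with its listed copies, described below, it held a mean of 1457 reads, beside 1135 for the Tpi1 and 1121 for the Aldoa family. Of these 1457 reads a mean of 938 lay on the copy Gm5177, at 90.5% identity. The family sum therefore does not rank Gapdh above Tpi1 or Aldoa. Ldha came last in all 4 GV groups, at 0.0273 in ZH Het and 1.67 in ZH KO oocytes. In ZH KO oocytes the order below Ldhb was Aldoa, Pkm, Gpi1, Tpi1 and Gapdh, each overlapping the next, followed by Pgam1, Pgk1 and Eno1 and then Ldha. In CabZ Het oocytes Tpi1 (39.9) stood above Aldoa (20.9) without overlap, whereas in CabZ KO oocytes Aldoa (26.8), Tpi1 (23.4) and Pkm (22) overlapped.

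In 2-cell embryos Tpi1 was the second most abundant of the 10 in every group, at an exon RPKM of 17.1 to 22. Pgam1 (12.2) and Pgk1 (11.2) followed in CabZ Het embryos, and Gpi1 was lowest there (1.78). Together the 10 genes took 0.547 to 0.693% of all reads in CabZ Het oocytes and 0.0463 to 0.0654% in CabZ Het 2-cell embryos, from tables normalised on their own.

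Tpi1 lies at chr6:124810586-124814296, Gapdh at chr6:125161715-125166467 and Ldhb at chr6:142490249-142507957, all on the minus strand (GRCm38). Eno1 lies at chr4:150236721-150248879, Pkm at chr9:59656368-59679375 and Ldha at chr7:46841475-46855627, on the plus strand, and Aldoa at chr7:126795234-126809108 on the minus strand. Exons made up 87% of the span of Gapdh and 8.9% of that of Ldhb.

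Several members are difficult to count, because copies elsewhere in the genome carry almost the same sequence. A search of the annotated transcripts found 175 copies of Gapdh with at least 90% identity, of which 83 were listed in the ZH table, 34 in the CabZ GV table, 44 in the CabZ 2-cell table and 31 in the injection table. In ZH Het oocytes a mean of 88 reads lay on Gapdh and 1369 on its listed copies, or 93.9% on copies, and in ZH KO oocytes 407 and 2475 reads (85.9%). Much of this lay on Gm5177 (90.5% identity), with means of 938 reads in Het and 1057 in KO oocytes. A transcript of the gene Peli2 (90.8% identity) was counted as a copy too, with 47.4 and 185.3 reads. Of the reads on Gapdh and copies of at least 98% identity, such copies held 69.8% in Het and 70.3% in KO oocytes. The copy Gm7336 did not differ from Gapdh at any of 1020 coding bases compared, and held a mean of 163.4 reads in ZH Het and 834.7 reads in ZH KO oocytes. Eno1 and its copy Gm4735, a processed pseudogene at chr2:80837141-80838442 (GRCm38), differed at 5 of 1302 bases, and 62% of reads on the Eno1 family in ZH Het oocytes lay on copies. A stretch of 91 bases of each (positions 681 to 771 of the coding sequence of Eno1) is shown because it holds 1 of the 5 differences, the base in capitals, and shows how little separates them.
Eno1: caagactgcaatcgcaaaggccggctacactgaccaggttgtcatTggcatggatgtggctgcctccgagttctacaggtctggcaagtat
Gm4735: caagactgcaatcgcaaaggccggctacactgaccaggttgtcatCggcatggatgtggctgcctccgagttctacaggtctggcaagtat
Within these bases only the capital letter separates the gene from the pseudogene. The copies Gm5537 and Pgk1-rs7 were 100% identical to Pgk1 over the aligned bases, to the decimal printed, and held 66.4% of the family's reads in ZH Het and 68.9% in ZH KO oocytes. Copies held 24.6 to 25.9% of the reads of the Gpi1 family in ZH oocytes, 13.6 to 15.6% for Pkm, 1.9% for Ldhb and at most 1.2% for Aldoa and Tpi1. How the authors' counting treated reads with several matches is not given in the sources used here. The copies Gm10359 and Gm12671 were both 100% identical to Gapdh over the aligned bases. In every group their mean reads were equal, at 6.9 in ZH Het and 15.1 in ZH KO oocytes. Whether reads with several matches were shared among loci was not tested. Values of Gapdh, Eno1 and Pgk1 are uncertain to that extent, and a copy that follows its gene may hold some of the same reads.

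**Figure D2:**
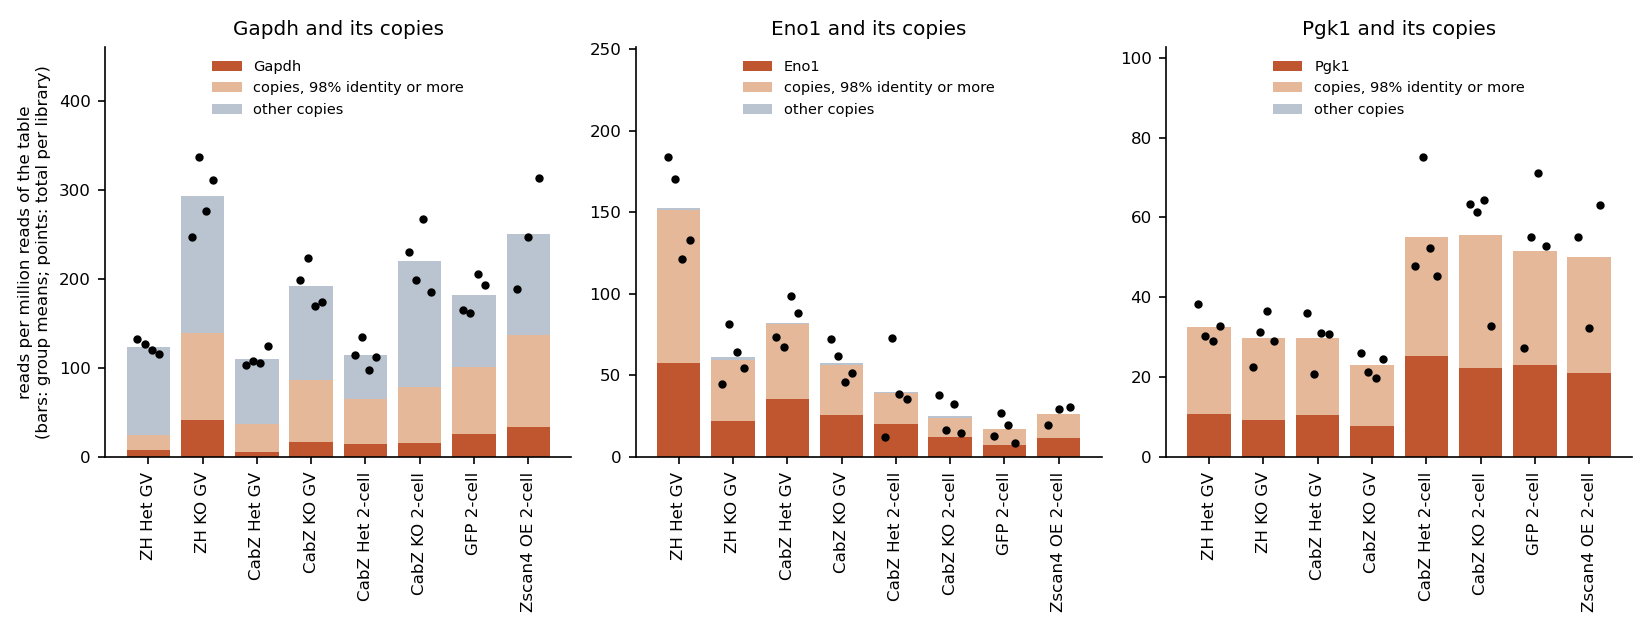
RPM (reads scaled to all reads of the table) on Gapdh, Eno1 and Pgk1 and on their listed copies in each of the 8 groups; stacked bars are group means of the gene (dark orange), of copies with 98% identity or more (light orange) and of other copies (grey), and points are the totals of single libraries. Gapdh was the smallest part of its family in each group, and the Gapdh family was also higher in ZH KO than in ZH Het oocytes.

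In ZH oocytes, deletion of Hira went with a higher level of Gapdh and lower levels of Tpi1, Eno1 and Pkm, whereas Ldhb did not pass the test. Of the 7 members tested, 4 were called (1 higher and 3 lower), against 51.9% of all 5792 genes tested (25.6% higher and 26.3% lower), so that their share was near the background. All 4 also changed by more than 2-fold, which 17.7% of the tested genes did. The median log2 fold change was -0.26 over the 7 members and -0.04 over all genes tested. Among all genes called, 49.4% were higher in KO oocytes; this was 60.3% when libraries were scaled to their reads and 40% when scaled by the median.

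Of the upper steps, Tpi1, which interconverts the triose phosphates that aldolase releases, stood at 21.7, 21.2, 16.5 and 18.2 FPKM in the ZH Het libraries and at 6.88, 7.44, 4.08 and 9.5 FPKM in the KO libraries. Every KO library lay far below every Het library. The mean fell from 19.4 ± 2.47 (SD, n = 4) to 6.97 ± 2.24 FPKM (n = 4), a log2 fold change of -1.40 ± 0.21 (SE; limma adjusted p = 0.0006). Gpi1 was at 1.17 to 1.82 FPKM in Het and 1.39 to 3.48 FPKM in KO libraries (log2 fold change 0.30, 95% interval -0.15 to 0.74, limma adjusted p = 0.23). Aldoa, which splits fructose 1,6-bisphosphate, was at 3.49 to 6.65 and 4.94 to 9.48 FPKM (0.31, interval -0.17 to 0.80, limma adjusted p = 0.24). Both groups overlapped for Gpi1 and for Aldoa, and KO library 2 held the highest value of each.

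Of the lower steps, Gapdh, which oxidises glyceraldehyde 3-phosphate, was at 1.38, 1.28, 0.909 and 1.17 FPKM in Het and at 4.91, 6.31, 5.32 and 6.92 FPKM in KO libraries. Every KO library lay well above every Het library. The mean rose from 1.19 ± 0.203 to 5.86 ± 0.917 FPKM (SD, n = 4 each), a log2 fold change of 1.65 ± 0.14 (SE; limma adjusted p = 2.1e-05). With all listed copies added to Gapdh, the log2 fold change was 1.04 (limma adjusted p = 0.00021), and with copies of at least 98% identity alone, a choice made after seeing the data, it was 2.07 (limma adjusted p = 1.9e-05); the adjusted p ran from 1.3e-05 to 0.00052 over the alternatives. The copy with most reads, Gm5177 (90.5% identity), held 842 to 1083 reads in Het and 855 to 1348 reads in KO libraries. The 17 of 20 cumulus and granulosa cell markers listed summed to 0.502 to 0.79 FPKM in Het and 1.8 to 3.14 FPKM in KO libraries, where Foxl2 and Has2 were at 0; Amhr2, Inhbb, Ptx3 and Cd44 were at 0 in Het libraries. Their part in the level of Gapdh was not tested. Iffo1, which overlaps Gapdh on the opposite strand in these unstranded libraries, held a mean of 37 reads in Het and 16 reads in KO libraries.

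Eno1, which makes phosphoenolpyruvate, was at 4.5, 3.8, 2.92 and 2.98 FPKM in Het and at 1.06, 1.51, 1.28 and 1.05 FPKM in KO libraries. The groups were well apart. The mean fell from 3.55 ± 0.749 to 1.23 ± 0.219 FPKM (SD, n = 4 each), a log2 fold change of -1.02 ± 0.15 (SE; limma adjusted p = 0.00044), and with its copies added the change was -1.24 (limma adjusted p = 0.00052, range 0.00027 to 0.0026 over the alternatives). The pseudogene Gm4735 moved alongside, at 687 to 888 reads in Het and 160 to 389 reads in KO libraries, though it may hold some of the same reads.

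Pkm, which makes pyruvate, was at 8.78, 7.19, 5.9 and 6.92 FPKM in Het and at 1.71, 7.2, 1.78 and 2.42 FPKM in KO libraries. In 3 of 4 KO libraries it lay below every Het library, whereas KO library 2 lay among the Het libraries. Its log2 fold change was -1.09 ± 0.32 (SE; limma adjusted p = 0.018, range 0.00018 to 0.07 over the alternatives). Without ZH Het library 1 the call was lost (-1.0, limma adjusted p = 0.051), and without ZH KO library 2 the change was -1.46 (limma adjusted p = 0.00018).

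Pgk1, Pgam1 and Ldha had means under 1 FPKM in ZH oocytes and were not tested. Pgk1 was at 0.438 to 0.529 FPKM in Het and 0.33 to 0.464 FPKM in KO libraries. Pgam1 was at 0.31 to 0.593 and 0.733 to 1.12 FPKM, without overlap. In a fit over all 25053 genes with no filter on low values, 5 of the 10 members were called, against 28% of all genes; Pgam1 (0.39, limma adjusted p = 0.026) and Ldha (0.32, limma adjusted p = 0.017) entered, and Pkm (limma adjusted p = 0.07) left.

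Ldha was at the edge of detection in control oocytes. The ZH Het libraries held 1, 0, 0 and 4 reads on it and the ZH KO libraries 26, 95, 59 and 39 reads. Each KO library was well above each Het library. Ldhb, in contrast, was at 331, 286, 292 and 337 FPKM in Het and at 220, 286, 301 and 241 FPKM in KO libraries, which overlapped (log2 fold change -0.26, 95% interval -0.56 to 0.05, limma adjusted p = 0.14). Scaling by the median instead gave -0.40 (limma adjusted p = 0.031, range 0.031 to 0.54 over the alternatives), a setting that moved the median of all genes by -0.12. Scaling to the reads of the table gave -0.10 (limma adjusted p = 0.54) and moved that median by 0.12. Those reads were 74.2 to 74.7% of the total behind the FPKM in Het and 66.0 to 68.2% in KO libraries. ZH levels therefore depend on the scaling. The cumulus and granulosa cell marker sums given above moved with Ldha as well, and their part in it was not tested.

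**Figure D3:**
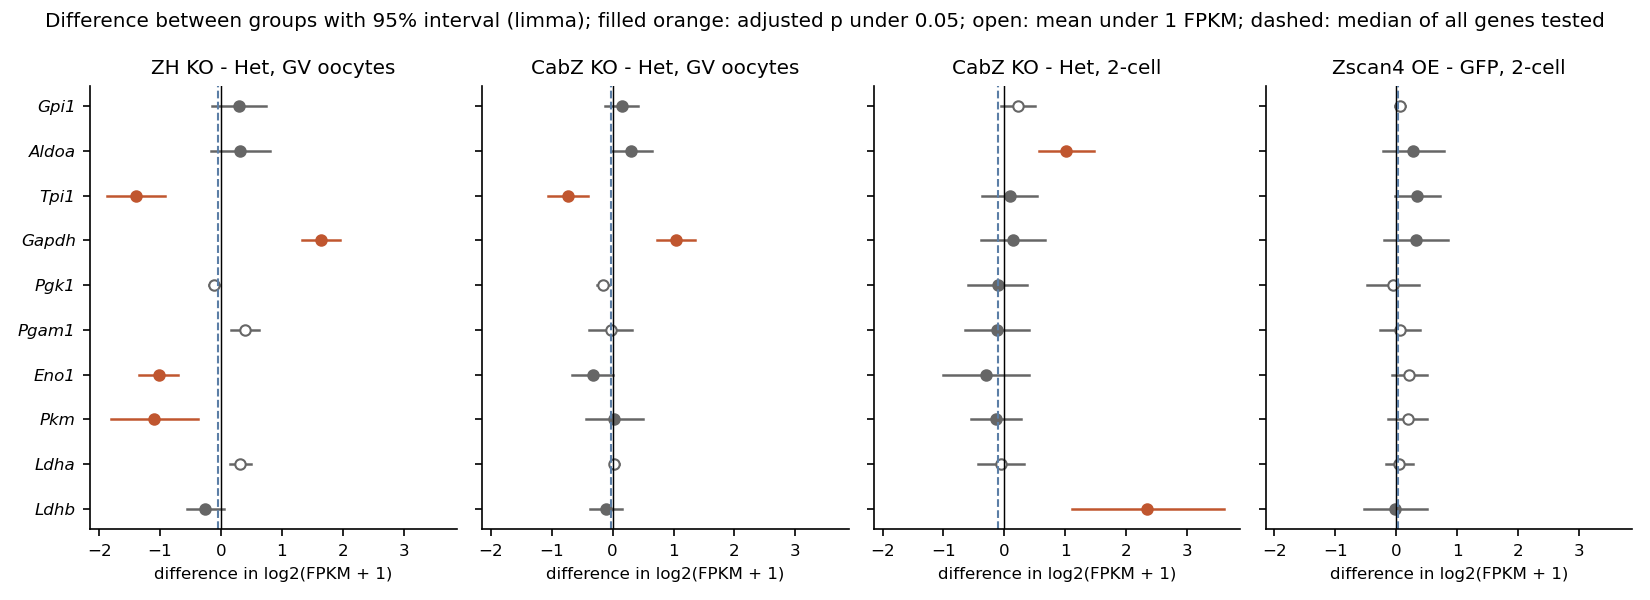
Difference in log2(FPKM + 1) between KO and Het, or Zscan4 OE and GFP, for the 10 genes in the 4 comparisons, with 95% intervals from limma; orange points passed an adjusted p of 0.05, open points had a mean under 1 FPKM and come from the fit with no filter, and the dashed line is the median of all genes tested. Tpi1 and Gapdh were called in both GV comparisons in the same direction each, and Aldoa and Ldhb in the CabZ 2-cell comparison.

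In CabZ oocytes, Gapdh was again higher and Tpi1 lower in KO libraries. These were 2 of the 7 members tested, against 13.9% of the 6339 genes tested; 8.2% of genes were called higher and 5.73% lower. Gapdh alone also exceeded a 2-fold change, which 2.9% of genes did. The median log2 fold change was 0.03 over the members and -0.02 over all genes tested.

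Tpi1 was at 29.8, 23.4, 34.3 and 30.8 FPKM in CabZ Het and at 16.1, 14.3, 19.1 and 19.8 FPKM in CabZ KO libraries. No KO library reached the lowest Het library. The log2 fold change was -0.74 ± 0.15 (SE; limma adjusted p = 0.0089), a 1.67-fold fall. Gapdh was at 1.25, 1.44, 1.1 and 1.05 FPKM in Het and at 3.74, 4.71, 3.24 and 2.67 FPKM in KO libraries. The groups were again apart, with a log2 fold change of 1.04 ± 0.14 (SE; limma adjusted p = 0.0013). With all copies added it was 0.77 (limma adjusted p = 0.0026), and with copies of at least 98% identity alone 1.12 (limma adjusted p = 0.00048; range 0.00048 to 0.009 over the alternatives). The 8 of 20 cumulus and granulosa cell markers listed summed to 0.704 to 1.11 FPKM in Het and 0.973 to 1.44 FPKM in KO libraries, with none of the 8 at 0; their part was not tested.

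The other members did not pass the test in CabZ oocytes. Eno1 was at 2.26 to 3.72 FPKM in Het and 1.63 to 2.61 FPKM in KO libraries (log2 fold change -0.33, 95% interval -0.67 to 0.00, limma adjusted p = 0.19). Pkm was at 3.15 to 5.15 and 3.08 to 6.89 FPKM (0.03, interval -0.43 to 0.50, limma adjusted p = 0.94). Aldoa (0.31, limma adjusted p = 0.22) and Gpi1 (0.15, limma adjusted p = 0.49) also overlapped between the groups. Ldhb was at 369, 292, 325 and 358 FPKM in Het and at 349, 321, 280 and 293 FPKM in KO libraries (-0.11, interval -0.37 to 0.15, limma adjusted p = 0.60). Ldha held 1, 0, 5 and 10 reads in Het and 8, 10, 6 and 1 reads in KO libraries, which overlapped. Pgk1 (0.519 to 0.732 and 0.422 to 0.504 FPKM, without overlap) and Pgam1 (0.304 to 0.863 and 0.291 to 0.842 FPKM) were below the filter.

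In CabZ 2-cell embryos, the members that moved were others: Ldhb and Aldoa were higher in KO embryos. They were 2 of 8 members tested, against 56.1% of the 7798 genes tested; 25.2% of genes were called higher and 30.9% lower, and no member was called lower. Both exceeded 2-fold, which 37.4% of genes did. The median was -0.01 over the members and -0.11 over all genes tested, and scaling by the median moved the latter by 0.19.

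Ldhb was at 17.3, 16.5, 17.1 and 25.1 FPKM in CabZ Het embryos and at 50.7, 51.9, 105 and 358 FPKM in CabZ KO embryos. Every KO library lay above every Het library, and the KO libraries were spread far more widely than the Het libraries. The mean rose from 19 ± 4.09 to 141 ± 146 FPKM (SD, n = 4 each), a log2 fold change of 2.35 ± 0.55 (SE; limma adjusted p = 0.0058), or 5.12-fold. Without KO library 4 the change was 1.75, or 3.35-fold (limma adjusted p = 0.002, range 0.002 to 0.031 over the alternatives). That library also had the highest sum of the 12 oocyte markers, 3317 FPKM, against 1535, 1535 and 1906 FPKM in the other KO libraries and 1797 to 2155 FPKM in Het libraries, and the part of this in the level of Ldhb was not tested. The pseudogene Gm5514 followed Ldhb, at 40 to 65 reads in Het and 91 to 862 reads in KO libraries, though it may hold some of the same reads.

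Aldoa was at 0.598, 1.5, 1.06 and 1.15 FPKM in Het and at 4.03, 3.24, 3.01 and 2.46 FPKM in KO embryos. The groups did not overlap, with a log2 fold change of 1.02 ± 0.20 (SE; limma adjusted p = 0.0023). The 15 of 20 cumulus and granulosa cell markers listed summed to 9.11 to 12.6 FPKM in Het and to 29.7, 15.9, 11.6 and 12 FPKM in KO libraries 1 to 4, with Fshr at 0 in Het libraries; their part was not tested.

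The remaining 6 tested members overlapped between CabZ Het and KO embryos. Gapdh was at 1.74 to 4.27 FPKM in Het and 2.68 to 3.89 FPKM in KO embryos (0.15, 95% interval -0.38 to 0.67, limma adjusted p = 0.61). With all its copies added it was called (0.91, limma adjusted p = 0.0028, range 0.0028 to 0.95 over the alternatives), whereas with copies of at least 98% identity alone it was not (0.23, limma adjusted p = 0.41). Gm5177 held 168 to 366 reads in Het and 567 to 826 reads in KO libraries. Tpi1 was at 10.9 to 16.5 and 11.4 to 16.4 FPKM (0.09, interval -0.37 to 0.54, limma adjusted p = 0.74). Log2 fold changes of Pgk1, Pgam1, Eno1 and Pkm lay between -0.30 and -0.11, with limma adjusted p from 0.44 to 0.68. Gpi1 and Ldha were below the filter, and Ldha held 36, 138, 69 and 111 reads in Het and 64, 46, 67 and 59 reads in KO embryos.

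In 2-cell embryos from injected oocytes, no member passed the test. Of 4 members tested 0 were called by limma, against 77 (1.79%) of the 4293 genes tested, 1.44% with more than a 2-fold change. No member had an unadjusted limma p under 0.05 either, and leaving out any 1 library or changing any other setting gave 0 calls among the members as well. Tpi1 was at 7.94, 9.44, 9.82 and 6.76 FPKM with GFP and at 10.5, 11.2 and 11.5 FPKM in the libraries labelled Zscan4 OE. These groups did not overlap, yet the log2 fold change of 0.35 (95% interval -0.01 to 0.72) had a limma adjusted p of 0.27. Aldoa (0.28, interval -0.22 to 0.78) and Gapdh (0.33, interval -0.20 to 0.85) overlapped between the groups. Ldhb was at 73.1, 68.5, 105 and 69.5 FPKM with GFP and at 56.7, 87.3 and 93.4 FPKM with Zscan4 OE (-0.01, interval -0.52 to 0.51). The median log2 fold change was 0.30 over the 4 members and 0.03 over all genes tested. The other 6 members had means under 1 FPKM and overlapped between the groups.

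The balance of both lactate dehydrogenase subunits was taken within each library, where scaling between libraries plays no part. Per exon base, the summed reads gave 148687 Ldhb reads for each Ldha read in ZH Het oocytes (95% Poisson interval 63714 to 457926, on 5 Ldha reads) and 2605 in ZH KO oocytes (2282 to 2987, on 219 reads). In 3 Het libraries, which held 1, 0 and 0 Ldha reads, Ldha was set at 3 reads, the limit that a count of 0 allows. With these limits the mean log2 ratio was 15.78 ± 0.21 in Het and 11.50 ± 0.61 in KO oocytes (SD, n = 4 each), a difference of -4.28 ± 0.64 (here and below, the SD of a difference between single libraries, not between means). The Het mean is thus a lower limit, and its SD holds little of the spread of Ldha. Of the 5 Ldha reads 4 came from Het library 4, and without it the Het ratio was 488333 (87646 to 19288118, on 1 read). In CabZ oocytes the ratio was 35617 in Het (21932 to 62312, on 16 reads) and 17605 in KO (11926 to 27204, on 25 reads). The log2 difference was -0.79 ± 1.08 (SD), with Ldha set at 3 reads in 2 Het libraries and 1 KO library. Single libraries overlapped, at 13.8 to 15.8 on the log2 scale in Het and 13.43 to 15.02 in KO oocytes. Without CabZ Het library 4 the Het ratio was 71181 (32703 to 193964, on 6 reads). These intervals cover counting error only.

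In CabZ 2-cell embryos the ratio went the other way. It was 64.6 in Het (58.2 to 71.9, on 354 Ldha reads) and 532 in KO (468 to 607, on 236 reads), a log2 difference of 2.43 ± 1.5 (SD). Without KO library 4, which also had the highest oocyte marker sum, the KO ratio was 271 (234 to 316, on 177 reads). Single libraries lay between 5.15 and 7.16 on the log2 scale in Het and between 7.43 and 10.36 in KO embryos. With GFP it was 1124 and in the libraries labelled Zscan4 OE 983, a log2 difference of -0.23 ± 1.21 (SD). Ldha thus stayed the minor form in all 31 libraries.

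**Figure D4:**
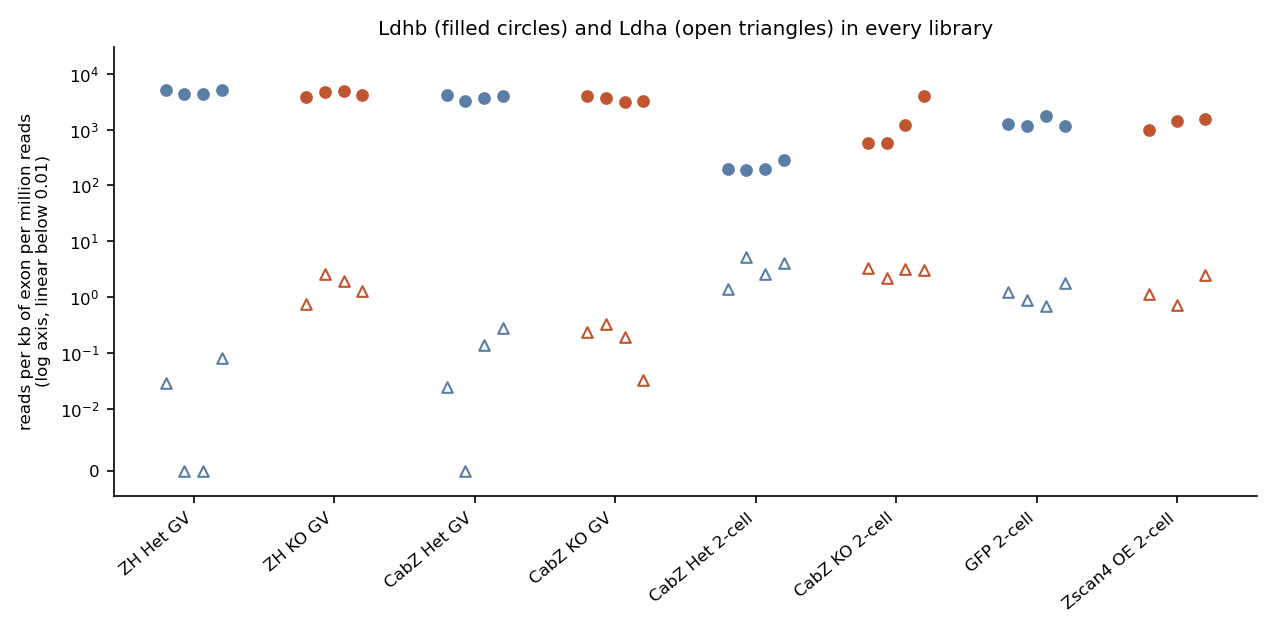
Exon RPKM (reads scaled to exon length and to all reads of the table) of Ldhb (filled circles) and Ldha (open triangles) in each of the 31 libraries (blue, Het or GFP; orange, KO or Zscan4 OE), on a log axis that is linear below 0.01. Ldhb lies above Ldha throughout; Ldha is at 0 in 3 control oocyte libraries, and the 4 CabZ KO 2-cell libraries spread in Ldhb from 572 to 4034.

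The other genes of the pathway were described from lists of each process, written from general knowledge but with earlier results of these data known. Their counts are to be read beside the shares of all genes called: 51.9% in ZH oocytes, 13.9% in CabZ oocytes, 56.1% in CabZ 2-cell embryos and 1.79% after injection. In ZH oocytes 6 of 26 other glycolytic enzymes and isozymes were tested, of which 2 were lower and 1 higher. Eno1b, a near-identical enolase copy, fell from 6.56 to 2.75 FPKM (log2 fold change -1.0, limma adjusted p = 0.0057), and Bpgm, which makes 2,3-bisphosphoglycerate, fell from 74.9 to 46.8 FPKM (-0.71, limma adjusted p = 0.018). Ldhc, the testis lactate dehydrogenase, rose from 0.356 to 1.72 FPKM (1.01, limma adjusted p = 0.0012). The list's median was -0.41, against -0.04 over all genes tested. Some called genes of these lists averaged under 1 FPKM in the group where they were lower. They reached the filter only through the group where they were higher, and their calls and counts carry that limit. In ZH oocytes these were Ldhc, G6pd2, G6pc3, Fbp2 and Hif1a, and in CabZ 2-cell embryos Pgam2, Slc16a1, Pdp2, Pdha2 and Ogdh.

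In the pentose phosphate list, G6pdx, whose product opens the pathway and makes NADPH, fell from 22.9 ± 4.96 to 7.06 ± 2.84 FPKM (SD, n = 4 each; -1.62 ± 0.26 SE, limma adjusted p = 0.00082), and its retrocopy G6pd2 fell from 2.04 to 0.598 FPKM (-0.94, limma adjusted p = 0.0012). Taldo1, transaldolase, rose (0.59, limma adjusted p = 0.0079), so that 2 of 4 tested were lower and 1 higher. Of the pyruvate dehydrogenase list 3 of 6 tested were called, a share like the 51.9% of all genes, and all 3 were lower: Pdhx (-0.77, limma adjusted p = 0.0019), Dld (-0.53, limma adjusted p = 0.0059) and Dlat (-0.53, limma adjusted p = 0.0051), which encode structural and catalytic subunits of the complex that feeds pyruvate into the citric acid cycle. Pdhb was at 7.78 and 7.55 FPKM.

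Of 11 tricarboxylic acid cycle genes tested in ZH oocytes 4 were lower and none higher, beside 26.3% of all genes lower and 25.6% higher. Cs, citrate synthase, fell from 5.38 to 2.66 FPKM (-0.83, limma adjusted p = 0.007), and Sdhc, Fh1 and Sucla2 fell by 0.53, 0.50 and 0.39 on the log2 scale. Sdhd was at 40 and 38.6 FPKM. Among transport genes 1 of 3 tested was called: Mpc2, a subunit of the mitochondrial pyruvate carrier, rose (0.63, limma adjusted p = 0.0025). Of 4 NADH shuttle genes tested, Mdh1 rose (0.45, limma adjusted p = 0.011) and Got1 fell (-0.59, limma adjusted p = 0.0091). Fbp2 rose (0.68) and G6pc3 fell (-0.79) among 3 gluconeogenesis genes tested, and Hif1a, the hypoxia-responsive activator of glycolytic genes, fell from 2.03 to 0.847 FPKM (-0.71, limma adjusted p = 0.0011), 1 of 2 regulators tested.

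In CabZ oocytes 3 genes of all these lists were called. Got1, the cytosolic aspartate aminotransferase, fell from 3.68 to 1.5 FPKM (-0.90, limma adjusted p = 0.0014). Pdha2, a retrogene for the pyruvate dehydrogenase alpha subunit known from testis, rose from 1.16 to 3.08 FPKM (0.88, limma adjusted p = 0.012), and Fbp2, a fructose bisphosphatase, rose from 1.2 to 2.17 FPKM (0.53, limma adjusted p = 0.012). No gene was called among 5 other glycolytic enzymes, 4 transporters, 3 pentose phosphate, 12 citric acid cycle or 2 regulator genes tested. G6pdx was at 21.3 ± 3.04 and 19.3 ± 5.63 FPKM (SD, n = 4 each; -0.17, limma adjusted p = 0.64).

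In CabZ 2-cell embryos genes of these lists were called in both directions. Of 6 other glycolytic enzymes tested 3 were lower and 1 higher, beside 30.9% and 25.2% of all genes: Tigar (-2.35, limma adjusted p = 0.001), Pgam2 (-1.83, limma adjusted p = 0.024) and Ldhc (-0.74, limma adjusted p = 0.016) fell and Bpgm rose (1.29, limma adjusted p = 0.0045). Tigar, a bisphosphatase that lowers glycolytic flux, went from 11 ± 5.34 to 1.35 ± 1.1 FPKM (SD, n = 4 each). Pgam2 went from 7.02 ± 7.64 to 0.716 ± 0.604 FPKM (SD, n = 4 each), so that its Het libraries were spread very widely. Of 7 pyruvate dehydrogenase genes tested Pdhb (-1.28), Pdp2 (-1.0) and Pdha1 (-0.90) fell and Pdp1 (1.27) and Pdha2 (1.32) rose. The autosomal retrogene Pdha2 and the X-linked Pdha1 thus moved in opposite directions, from 0.494 to 2.59 FPKM and from 4.96 to 2.05 FPKM.

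Of 4 transport genes tested Mpc2 (-1.66) and the lactate and pyruvate transporter Slc16a1 (-0.87) fell, and Bsg, its chaperone, rose (0.79); Mpc1 was at 26.7 and 28.9 FPKM. Idh3g (-1.92), Idh3b (-1.15) and Ogdh (-0.68) fell of 8 citric acid cycle genes tested, and Mdh2 (-1.87) and Slc25a11 (-1.30) of 5 shuttle genes, with no riser in either list. Taldo1 fell (-1.60) and G6pdx rose (0.95) among 3 pentose phosphate genes tested. Of 3 regulators tested Vhl fell (-1.71) and Max rose (0.70). In the injection experiment no gene of any list was called; Bpgm was at 25 ± 4.28 FPKM with GFP (SD, n = 4) and 36.3 ± 9.62 FPKM in the libraries labelled Zscan4 OE (n = 3).

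Over the 31 libraries, with each table centred on its own mean, the members did not vary as 1 block. The highest correlations between members were those of Gpi1 with Aldoa (Pearson's r = 0.74), Eno1 with Pkm (0.68), Gapdh with Ldha (0.63) and Tpi1 with Eno1 (0.62), and the lowest that of Tpi1 with Gapdh (-0.75). Of 3293 other genes tested in all 4 tables, Reep2 (0.81), Mlf2, Eif5a, Grina and Surf4 (0.80 each) were most like the mean of the 10 members. The members' own correlations with that mean ran from 0.03 (Pgam1) and 0.22 (Tpi1 and Gapdh) to 0.81 (Aldoa), so it stood for some members only. Of the 10 members in that mean, only 4 were tested in all 4 tables. The libraries share group, table and depth, so these values are descriptions.

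An ATAC-seq peak, called in each library on its own, lay within 500 bases of an annotated start in none, 3 and 3 of the 10 members in CabZ Het libraries A, B and C, where 8.33, 16.4 and 29.2% of 27025 genes had one. In CabZ KO libraries A, B and C it was 4, none and none, against 11.7, 3.73 and 4.8% of genes. Peaks numbered 43399, 67074 and 111327 in Het and 46070, 19160 and 29600 in KO libraries, so that the libraries differed widely in how much was called and no difference between groups can be read from it. Ldhb and Eno1 each had a peak in Het libraries B and C and in KO library A, the 3 libraries in which any member had one. With the summit itself asked to lie in the window, Eno1 kept its peak in these 3 libraries and Ldhb in KO library A alone, and at a −log10 q of at least 5 each had a peak in 1 library. The Ldhb peaks had a fold enrichment over background of 5.82, 4.1 and 5.62 and the Eno1 peaks of 3.64, 5.57 and 5.62. Pgam1 and Aldoa had a peak in 1 Het library, Pgk1 and Pkm in 1 KO library, and Gpi1, Tpi1, Gapdh and Ldha in none. Gapdh and Tpi1, which changed in CabZ oocytes, thus had no peak in this window; within 1000 bases Gapdh had one in Het libraries B and C and Tpi1 in Het library C.

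The 250 bases before the start of both genes are shown because each had a peak within 500 bases of its start in 3 libraries; of those 3 peaks only 1 overlaps the bases printed (Het library B for Ldhb and Het library C for Eno1). They were read from GRCm38.p6 and are given 5′ to 3′ on the strand of the gene. Ldhb lies on the minus strand at chr6:142507958-142508207 and Eno1 on the plus strand at chr4:150236458-150236707.
Ldhb: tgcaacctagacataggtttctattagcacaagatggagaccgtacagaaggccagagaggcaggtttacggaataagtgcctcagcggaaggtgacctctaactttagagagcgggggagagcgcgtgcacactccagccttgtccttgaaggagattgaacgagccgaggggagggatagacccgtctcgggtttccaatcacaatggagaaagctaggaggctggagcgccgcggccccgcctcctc
Eno1: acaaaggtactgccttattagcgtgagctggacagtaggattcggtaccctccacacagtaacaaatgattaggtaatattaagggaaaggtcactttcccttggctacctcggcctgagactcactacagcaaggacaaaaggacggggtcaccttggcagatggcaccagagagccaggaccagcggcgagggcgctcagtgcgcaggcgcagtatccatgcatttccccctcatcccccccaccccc
Eno1 has 3 annotated starts, of which this is the first. The E-box CACGTG, bound by Myc and related factors, includes the core of the hypoxia response element, which is ACGTG. The GC box is written GGGCGG. Neither sequence holds any of these motifs on either strand. Counting all annotated starts of a gene, CACGTG was found within 250 bases in 1 of the 10 members and in 6.86% of 27025 genes, ACGTG in 5 members (Aldoa, Pgk1, Pgam1, Pkm and Ldha) and in 18.5% of genes, and GGGCGG in 7 members and in 35.4% of genes. The member with CACGTG was Ldha, which holds it at 145 and 48 bases before a start on the plus strand. Both sites, at chr7:46845647-46845676 and chr7:46845744-46845773, are shown with the E-box in capitals because Ldha is the one member barely detected in control oocytes.
Ldha, farther site: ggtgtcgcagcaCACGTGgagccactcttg
Ldha, nearer site: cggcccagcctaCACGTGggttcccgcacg
A match of letters is a description of the sequence and shows no binding.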

How the data were processed

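RNA-seq libraries (Smart-seq2 with an unstranded Nextera library, 31 in all) and 6 ATAC-seq libraries were analysed from processed tables. The authors aligned RNA reads with STAR 2.5.3a to mm10 and deposited FPKM values from Partek Flow for the ZH and injection experiments, with 0.01 or 0.001 added. Both CabZ RNA tables deposited by the authors hold a score that behaves as reads divided by the gene's span 2 times; it was taken back to FPKM by multiplying by the span and scaling each library. For ATAC-seq the authors aligned with Bowtie2 2.3 and deposited MACS2 peaks per library, with a fold enrichment ratio, a −log10 p, a −log10 q and a whole-number score.

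The smallest value of each table was subtracted first. Restored reads, of which 85.9 to 90.6% of low values lay within 0.1 of a whole number, gave depths and read counts but entered no test. Each table was fitted on its own on the log2(FPKM + 1) scale (limma 3.58.1 under R 4.3.3, p-values adjusted after Benjamini and Hochberg), leaving out genes that averaged under 1 FPKM; a fold over 2 was asked for in addition where stated. The steps were tested on simulated data. Copies of members were found with blastn 2.17.0 (at least 90% identity over at least 200 bases and 50% of the copy) among GENCODE M21 transcripts; sequences came from GRCm38.p6 through samtools 1.23.1. Columns of the authors' own comparisons were not used. Alternatives were other pseudocounts, filters and scalings, copies added, a block for the replicate number and each library left out. The members and gene lists were chosen with earlier results of these data known. Genes named from the lists were those that passed the test and the gene of highest FPKM per list and group. FPKM is relative within a library, so that a change in the total RNA of an oocyte is not seen.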

Additional observations from a re-analysis of the deposited data

Results flagged for a closer look

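In 7 of 77 sets of 4 libraries, each a member or the Ldhb to Ldha ratio in a group, 1 library lay far from the other 3 by Dixon's test at 95%; chance alone gives about 5% of such sets. Pkm was at 7.2 FPKM in ZH KO GV library 2, against 1.71 to 2.42 FPKM in the others, and at 3.15 FPKM in CabZ Het GV library 2, against 4.88 to 5.15 FPKM. It was at 1.67 FPKM in CabZ KO 2-cell library 1, against 0.844 to 0.891 FPKM. Ldhb was at 25.1 FPKM in CabZ Het 2-cell library 4, against 16.5 to 17.3 FPKM, and at 105 FPKM in GFP library C, against 68.5 to 73.1 FPKM. Gpi1 was at 0.909 FPKM in CabZ KO 2-cell library 1, against 0.514 to 0.573 FPKM. Pgk1 was at 0.674 FPKM in CabZ KO 2-cell library 4, against 1.49 to 1.61 FPKM.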

How the results depend on the processing

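Of 433 alternative values of 26 single-member results, 429 stayed on their side of the threshold, 2 lost the call, 2 gained it and 0 called values reversed; 12 values that were not called changed sign. Pkm in ZH oocytes lost it with no filter (limma adjusted p = 0.07) or without Het library 1 (0.051), Ldhb in ZH oocytes gained it under median scaling and Gapdh in CabZ 2-cell embryos with its copies added. With a filter at 5 FPKM fewer members were tested and 2 were called in ZH oocytes, 1 in CabZ oocytes and 1 in CabZ 2-cell embryos, with medians of -0.67 in ZH oocytes and 1.22 in 2-cell embryos. Without a filter the ZH median was 0.09, median scaling gave 0.18 in 2-cell embryos, and a 2-fold minimum left 1 member in CabZ oocytes. At a −log10 q of at least 5, 2 members had an ATAC-seq peak, and 4 to 6 did with 1 library left out.

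With 1 library left out, 3 to 4 members were called in ZH oocytes, 2 to 2 in both CabZ comparisons and 0 to 0 after injection. The medians ran from -0.33 to -0.18, from -0.13 to 0.19, from -0.07 to 0.11 and from 0.12 to 0.38, and the log2 differences in the Ldhb to Ldha ratio from -4.53 to -4.05, from -1.16 to -0.49, from 1.84 to 2.82 and from -0.73 to 0.12, in the order ZH, CabZ GV, CabZ 2-cell and injection. The replicate block called 4, 2, 2 and 0 members, with medians of -0.26, 0.03, -0.01 and 0.24. The correlations of same-numbered libraries ran from -0.41 to 0.40 in ZH oocytes and from -0.16 to 0.15 after injection. Whether same-numbered libraries share more than a number cannot be told from so few libraries. Over all genes the replicate block called 2871, 667, 4098 and 2. Without a filter 7005, 1399 and 6 genes were called in ZH, CabZ GV and injected samples, at 5 FPKM 1346, 466 and 2148 in ZH, CabZ GV and CabZ 2-cell samples, and with a pseudocount of 0.1 after injection 47, against 3006, 883, 4376 and 77. With the CabZ values as deposited no member passed the filter, so that setting gave no value. With 0 to 10 Ldha reads per library, the Ldhb to Ldha ratio in CabZ oocytes has a wide counting error.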
